A study of Mus musculus with 24 samples.

Results

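The genes described here encode the proteins that hold the contractile filaments of striated muscle in register. They are the scaffolds, Z-disc proteins, M-band proteins and assembly factors of the sarcomere other than the myosins, actins, troponins and tropomyosins. The 43 genes were chosen by name, and each was represented by the probe set with that single gene symbol and the highest mean over all 24 arrays. A probe set was found for 41 of them, out of 18193 gene symbols with such a probe set on the array, and 34 reached a mean intensity of 100 at 1 or more time points and were tested. Xirp2 and Trim55 had no such probe set, and 7 genes stayed below the intensity of 100. RNA came from C2C12, a line of mouse skeletal myoblasts, on Affymetrix mouse arrays, with 3 arrays for each of 8 time points. Day -1 cells were growing myoblasts at 50% confluency and Day 0 cells were myoblasts at 90% confluency, both in DMEM with 10% FBS. Cells of Day 0.25, which stands for 6 hours, and of Days 1, 2, 3, 4 and 5 were in differentiation medium, with serum at 2% by the labels. Cells of all time points belong to the same line, with no transgene or drug named in the labels. Nothing in the labels says that the 3 arrays of a time point came from separate cultures, so each p-value rests on variation among these arrays that could be technical in origin.

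In a myofibril the thin filaments are anchored at the Z-disc, where alpha-actinin cross-links them, and the thick filaments are cross-linked at the M-band, where myomesins bind them. Titin spans the distance between both and serves as a molecular spring, while nebulin lies along the thin filament. LIM and ankyrin repeat proteins, calsarcins and telethonin attach to this frame, and chaperones and ubiquitin ligase adaptors build and renew it. When cultured myoblasts leave the cell cycle and fuse into myotubes, these proteins are made and assemble in a sequence that starts with small Z-bodies.

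The deposited values are intensities on a linear scale, and "level" is used for the average of a probe set over the 3 arrays at 1 time point, given with the SD. Trimmed means of whole arrays were similar, between 144 and 155, and the median between 3.63 and 3.87. Between arrays of 1 time point Pearson's r across probe sets lay between 0.962 and 0.996. Apart from sums over marker lists, levels of different genes are not compared, since a probe set's brightness also depends on its sequence. For the same reason these sums lean towards the brightest probe sets. The summed intensity of the 9 skeletal muscle markers was 43949 to 50909 on Day 5 arrays, against 3792 to 4265 on Day -1 arrays. None of 8 cardiac markers reached a level of 100 at any time point. Over the same span the 5 measured proliferation markers summed to 326 to 565 on Day 5, against 9172 to 9819 on Day -1, and the 6 smooth muscle markers to 1637 to 2002 on Day 5, against 479 to 541 on Day -1. Most of the smooth muscle sum on Day 5 was Synpo2, at 1316 ± 153, against 151 ± 16.5 on Day -1 (SD, n = 3). Synpo2 is also among the other sarcomere genes described last. Mylk rose as well, with a log2 change of 3.79 ± 0.234 (SE) from Day -1 to Day 5. Myh11, Cnn1 and Lmod1 were near the lowest values, and Smtn was at 352 ± 26.8 on Day 5 and 334 ± 17.6 on Day -1. The 5 fibroblast markers summed to 8241 to 10824 on Day 5, against 3215 to 4082 on Day -1, with Dcn at 5445 ± 443 on Day 5 and 37.7 ± 9.36 on Day -1 and Thy1 close to the lowest values throughout. Lum and Pdgfra also passed as higher between these days, while Col1a2, with a log2 change of 0.10 ± 0.149 (SE), did not pass. The 3 measured adipocyte markers summed to 92.5 to 101 on Day 5, against 216 to 217 on Day -1. The part of these markers in the results was not tested, and in bulk RNA a larger share of differentiated cells and more RNA per cell cannot be told apart.

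Promoter sequence is shown for 5 genes from 4 of the role groups that rose over the course, because muscle promoters commonly carry E-boxes, which MyoD family factors bind, and MEF2 sites. RefSeq windows of 250 bases before a gene start (GRCm38.p6) were used for 32 of the 43 genes, 42 windows in all. Myot and Myoz3 were left out of this search beforehand, so the shares given for these windows do not cover them. The E-box form CAGCTG, read on both strands, stood in 21.4% of these windows, against 13% of all 32851 windows of the table. The form CAGGTG stood in 31% of them, against 17.2% of all windows. Both forms are cases of the general E-box CANNTG, found in 69% of these windows, against 66.2% of all. The MCAT motif CATTCC was found in 21.4%, against 12.6% of all. A MEF2 site was found in 16.7%, against 1.69% of all windows, and lay in windows of Klhl41, Myom3, Myoz2, Synpo2l, Ttn and Xirp2. The Myom3 window and a Synpo2l window lie inside the gene. The CArG box, bound by SRF, was found in 11.9%, against 1.47% of all, in windows of Fhl1, Ldb3, Myom1 and Nebl. All of these windows lie inside the gene, and the same Ldb3 site was counted in overlapping windows. A match is a description of the letters and not a binding site. The 5 genes shown do not represent the set. Each holds CAGCTG or CAGGTG, and all but Mybph hold a MEF2 site, which was found for only 6 of the 32 genes. Each sequence is that of the gene's own strand, and capitals mark MEF2 sites and both E-box forms, which may be read on the opposite strand.
Ttn: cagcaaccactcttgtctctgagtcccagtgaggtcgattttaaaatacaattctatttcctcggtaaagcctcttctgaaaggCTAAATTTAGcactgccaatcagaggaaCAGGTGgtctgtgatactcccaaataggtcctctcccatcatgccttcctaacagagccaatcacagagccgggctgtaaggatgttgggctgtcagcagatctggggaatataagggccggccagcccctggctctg
Mybph: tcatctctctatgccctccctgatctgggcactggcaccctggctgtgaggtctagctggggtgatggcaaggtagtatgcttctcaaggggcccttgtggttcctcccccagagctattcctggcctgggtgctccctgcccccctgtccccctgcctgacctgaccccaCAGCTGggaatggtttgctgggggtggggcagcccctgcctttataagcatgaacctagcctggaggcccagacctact
Myom3: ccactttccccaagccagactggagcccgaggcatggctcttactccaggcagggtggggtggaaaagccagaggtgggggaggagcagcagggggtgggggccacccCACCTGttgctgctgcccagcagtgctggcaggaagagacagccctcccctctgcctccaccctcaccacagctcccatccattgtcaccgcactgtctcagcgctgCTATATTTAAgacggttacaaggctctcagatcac
Myoz2: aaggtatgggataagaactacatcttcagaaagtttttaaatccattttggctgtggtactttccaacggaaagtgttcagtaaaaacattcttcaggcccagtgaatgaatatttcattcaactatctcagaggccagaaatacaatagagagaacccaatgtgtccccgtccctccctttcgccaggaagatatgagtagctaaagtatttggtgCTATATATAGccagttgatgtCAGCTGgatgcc
Klhl41: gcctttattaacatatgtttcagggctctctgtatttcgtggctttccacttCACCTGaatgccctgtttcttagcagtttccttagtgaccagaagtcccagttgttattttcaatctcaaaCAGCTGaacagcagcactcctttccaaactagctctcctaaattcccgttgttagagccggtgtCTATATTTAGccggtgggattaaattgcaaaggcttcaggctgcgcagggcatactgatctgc
The windows are chr2:76982548-76982797 (minus strand), chr1:134193198-134193447 (plus), chr4:135759465-135759714 (plus), chr3:123034988-123035237 (minus) and chr2:69669870-69670119 (plus). The MEF2 match began 166 bases before the start for Ttn, 35 for Myom3, 33 for Myoz2 and 63 for Klhl41. The Myom3 start used here lies inside the gene, whose listed span begins at chr4:135758800. Mybph held CAGCTG 79 bases before its start and no MEF2 letters in this window.

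Of the 34 genes tested, 31 were higher on Day 5 than on Day -1 and 2 were lower, with a median log2 change of 4.51. Over all 13735 probe sets tested, 31.9% were higher and 38.4% lower in that comparison, with a median of -0.08. Some of the 34 genes were tested only because of their later levels. Examples are Myom1, Tcap and Neb, with Day -1 levels of 2.20, 2.29 and 3.14. For such genes the level filter made a call of higher on Day 5 likely beforehand, and their large log2 changes are not precise. The same filter was applied to all probe sets. A gene passed at an adjusted p under 0.05 in a single limma fit to all 24 arrays, with p-values adjusted over all probe sets tested. The lower genes were Tmod3, a tropomodulin of many cell types, and Actn1, a non-muscle alpha-actinin, and the gene that did not pass was Actn4, its close relative. The 31 calls of higher levels and both calls of lower ones held whichever of the 24 arrays was left out. Not all of the higher calls held under other settings, as given below. Obsl1 did not pass when low values were raised to a common floor. Fhl1 did not pass in a fit to the Day -1 and Day 5 arrays alone. The direction of Pdlim5 and of Pdlim7 depended on the probe set.

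**Figure D1:**
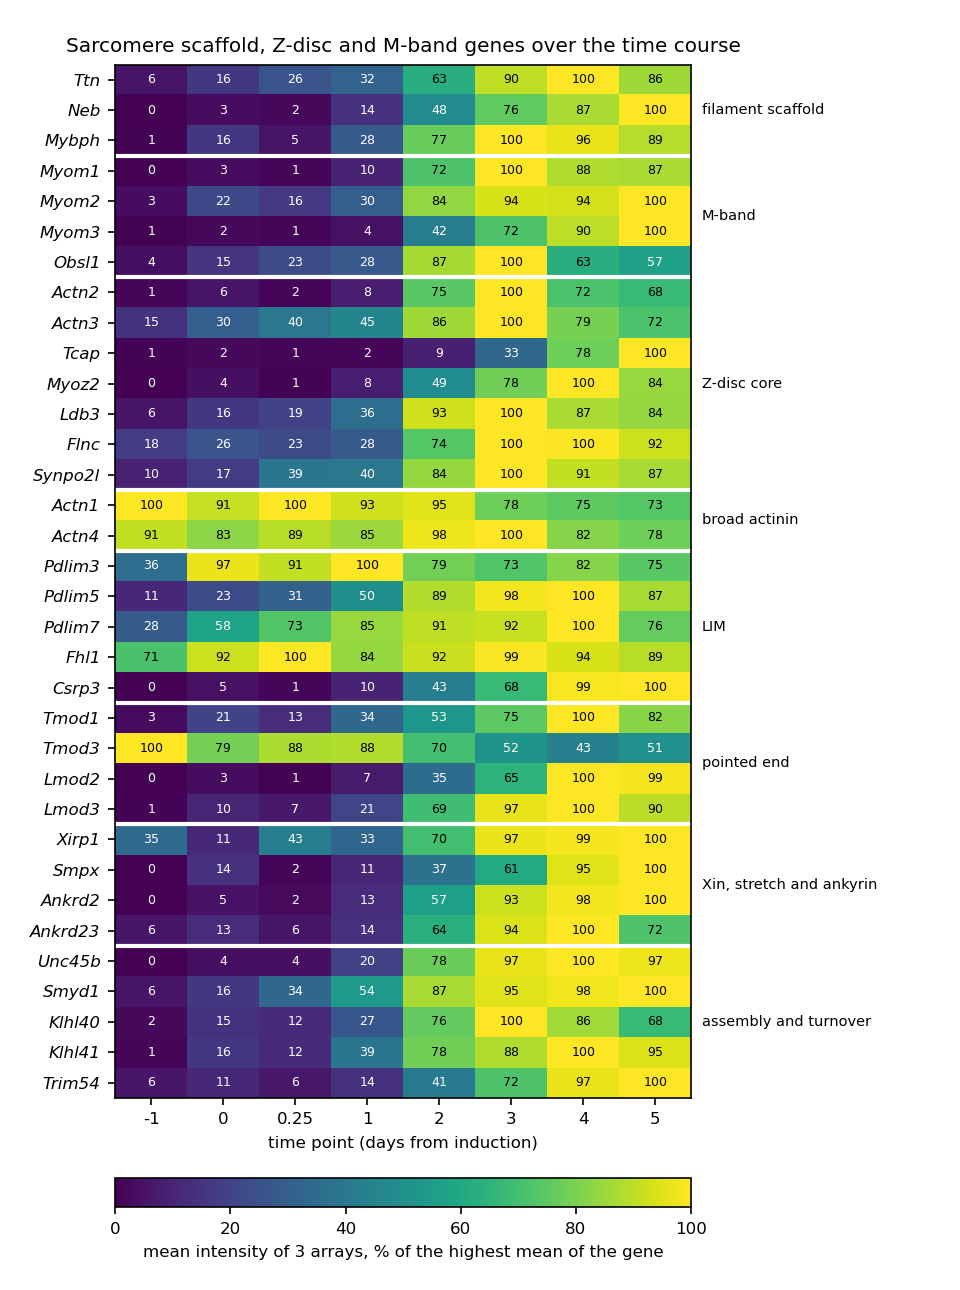
Mean intensity of 3 arrays at each time point for the 34 genes tested, as a percentage of the gene's highest mean, with time in days from left to right and genes grouped by role. Most rows are dark up to Day 1 and bright from Day 2 or Day 3, while Actn1, Actn4, Fhl1 and Tmod3 are bright from Day -1.

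Most of these genes rose between the growing and the confluent myoblasts, before any change of serum. On Day 0, 30 of 34 were higher than on Day -1 and 1, Xirp1, was lower, beside 23.3% higher and 21.7% lower of all probe sets tested. The median log2 change was 1.58, against 0.00 over all probe sets. For 8 of the 30 both levels lay under an intensity of 50, and 18 passed when a level of 100 was required on Day 0 or Day -1. With values below 50 raised to 50, 20 were higher. The increase of Flnc was the only one of the 30 whose call was lost when single arrays were left out (Day -1 replicates 1 and 3, Day 0 replicates 2 and 3), with log2 changes of 0.49 to 0.58 against 0.58 with all arrays.

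After 6 hours in differentiation medium many of them were lower again. On Day 0.25, 14 genes were lower than on Day 0 and 6 were higher, beside 20.9% lower and 22.4% higher of all probe sets, with a median of -0.38, against 0.03 over all. Both comparisons share the Day 0 arrays. Of the 14 lower genes 5 had both levels under 50, and 10 kept the call whichever array was left out, as did 3 of the 6 higher ones. The genes that lost it were Myom1, Tcap, Tmod1 and Klhl41 among the lower and Ttn, Actn3 and Pdlim5 among the higher. Where the call was lost, the log2 change of Myom1 was -0.69 to -1.07 against -1.15 with all arrays (without Day 0 replicates 1 or 2 or Day 0.25 replicates 1 or 2), and its arrays overlap. For Tcap it was -0.71 to -0.72 against -0.85 with all arrays (without Day 0 replicate 1 or Day 0.25 replicates 1 or 2), and for Klhl41 -0.39 to -0.46 against -0.48 with all arrays (without Day 0 replicates 1 or 3 or Day 0.25 replicates 1 or 2). For Tmod1, next to the threshold at an adjusted p of 0.0465, it was lost without any 1 of 16 arrays, including all 6 of these days. Actn3 had 0.30 to 0.41 against 0.39 with all arrays (without any Day 0 array or Day 0.25 replicates 1 or 3), and Pdlim5 0.36 to 0.41 against 0.41 with all arrays (without Day 0 replicates 2 or 3 or Day 0.25 replicates 1 or 2). The summed proliferation markers were higher in the same interval, at 7282 to 7639.9 on Day 0.25, against 4284 to 5114 on Day 0. Of these 5 markers only Mki67 passed as higher, and 4 did not pass. The part of this in the gene levels was not tested.

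From 6 hours onwards levels rose again. On Day 1, 21 genes were higher than on Day 0.25 and 1, Fhl1, was lower, beside 11.6% higher and 15.4% lower of all probe sets, with a median of 1.01, against -0.05 over all. The decrease of Fhl1 had log2 changes of -0.22 to -0.27 against -0.25 with all arrays where its call was lost, without Day 0.25 replicates 1 or 3 or any Day 1 array. Those of Myom2 were 0.56 to 0.62 against 0.88 with all arrays (without Day 0.25 replicate 2 or Day 1 replicate 3) and those of Smyd1 0.40 to 0.68 against 0.67 with all arrays (without Day 0.25 replicates 1 or 2 or Day 1 replicate 3). Against Day 0 itself, Day 1 had 18 genes higher and 0 lower, with 24 higher and 0 lower at an unadjusted p under 0.05 in the same limma fit, beside 11.8% higher and 13.9% lower of all. On Day 2, 27 genes were higher than on Day 1 and 1, Pdlim3, was lower, beside 22.8% higher and 21.7% lower of all probe sets, with a median of 1.48, against -0.01 over all. The increase of Smyd1 in this interval lost its call without any 1 of Day 1 replicates 1 and 2 and Day 2 replicate 1, at log2 changes of 0.56, 0.64 and 0.67, against 0.73 with all arrays.

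Few genes changed between later neighbours. On Day 3, 4 were higher than on Day 2 (Tcap, Lmod2, Smpx and Trim54) and 0 lower, with 16 higher and 2 lower at an unadjusted p under 0.05 by limma, beside 3.23% higher and 2.96% lower of all probe sets. On Day 4 only Tcap was higher than on Day 3 and 0 genes were lower, with 5 higher and 2 lower at an unadjusted p under 0.05, beside 0.473% higher and 0.663% lower of all. From Day 4 to Day 5 limma called 0 of 34 genes in either direction, with 0 higher and 1 lower at an unadjusted p under 0.05, beside 1.38% higher and 2.12% lower of all. Over the longer span, 9 genes were higher on Day 5 than on Day 2 and 1, Actn1, was lower, beside 13.7% higher and 21.1% lower of all probe sets, with a median of 0.25, against -0.04 over all. The decrease of Actn1 over that span had log2 changes of -0.26 to -0.27 against -0.37 with all arrays where the call was lost, without Day 2 replicate 2 or Day 5 replicate 1. With values below 50 raised to 50, 10 genes were higher on Day 3 than on Day 2.

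**Figure D2:**
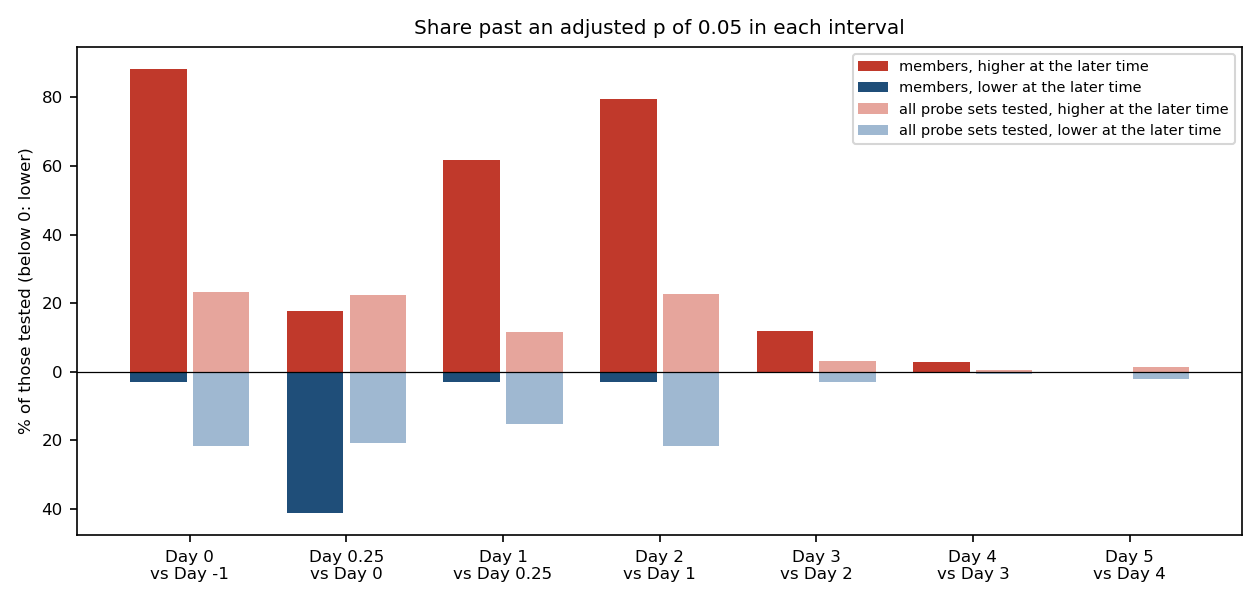
Share of the 34 genes (dark bars) and of all 13735 probe sets (light bars) past an adjusted p of 0.05 in each interval between neighbouring time points, in percent, with higher at the later time above 0 and lower below 0. The share of the genes is above that of all probe sets in the higher direction on Day 0, Day 1, Day 2, Day 3 and Day 4, and in the lower direction at 6 hours.

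The first time point at which a gene reached 50% of its highest mean orders the set. It was Day 2 for 19 of 34 genes and Day 3 for 7, namely Neb, Myom3, Myoz2, Csrp3, Lmod2, Smpx and Trim54. Smyd1 reached it on Day 1, Pdlim3 and Pdlim7 on Day 0, and Actn1, Actn4, Fhl1 and Tmod3 on Day -1. Tcap reached it only on Day 4. Some genes lay close to this cutoff. Smyd1 was at 54.1% and Pdlim5 at 49.9% on Day 1, and Tmod1 was at 52.7%, Myoz2 at 48.6% and Neb at 48.2% on Day 2. The highest mean itself fell on Day 3, Day 4 and Day 5 for 10 genes each. Arrays of 1 time point deviated together over these genes. Day 1 replicate 3 was the highest of its 3 arrays for 30 of 34 genes, and Day 4 replicate 2 the lowest of its 3 for 24.

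Among the long filament scaffolds and thick filament binding proteins, all 3 genes tested, Ttn, Neb and Mybph, were higher on Day 5 than on Day -1, with a median log2 change of 7.31. Ttn encodes titin. Its intensities were 2888, 2807 and 2238 on Day 5, against 186, 196 and 149.7 on Day -1, a log2 change of 3.90 ± 0.219 (SE, adjusted p = 4.56e-12). No Day 5 array overlapped a Day -1 array, and Ttn was already at 502, 575 and 427 on Day 0. At 6 hours Ttn stood at 1142, 579 and 722, against Day 0, a log2 change of 0.65 ± 0.219 (SE, adjusted p = 0.0225). That call was lost without Day 0 replicate 3 (0.54) or without Day 0.25 replicate 1 (0.38), the array with the highest of the 3 values at 6 hours.

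Neb, which encodes nebulin, started near the lower end of the scale. It had intensities of 60.6, 68.6 and 28.1 on Day 0, against 2.90, 3.73 and 2.80 on Day -1, and 177, 192 and 296 on Day 1, against 34.0, 18.4 and 42.9 on Day 0.25. The Day 1 values were all above those of Day 0.25, and the log2 change between them was 2.85 ± 0.314 (SE, adjusted p = 2.05e-06). The increase from Day -1 to Day 0, 3.97 ± 0.314 (SE, adjusted p = 7.29e-09), shrank to 0.24 and lost its call when values below 50 were raised to 50. Neb climbed to the end of the course, at 1771, 1584 and 1369.9 on Day 5, against 1014, 667 and 596 on Day 2, a log2 change of 1.08 ± 0.314 (SE, adjusted p = 0.011). The Day 5 arrays lay above all Day 2 arrays, and the call was lost without Day 2 replicate 3, at 0.93.

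Mybph encodes myosin-binding protein H, a thick filament protein. It was at 1721, 2056 and 2017 on Day 0, against 77.9, 55.7 and 69.2 on Day -1, a log2 change of 4.84 ± 0.139 (SE, adjusted p = 4.97e-15). At 6 hours it had dropped back on every array, to 672, 578 and 719 on Day 0.25, a log2 change against Day 0 of -1.56 ± 0.139 (SE, adjusted p = 5.94e-08). On Day 1 it was at 2955, 3049.6 and 4232, above all arrays of Day 0 and Day 0.25, with a log2 change over Day 0.25 of 2.36 ± 0.139 (SE, adjusted p = 3.88e-10). Day 2 brought 9648, 9175 and 8865, a further log2 change over Day 1 of 1.45 ± 0.139 (SE, adjusted p = 2.13e-07), after which its means stayed between 10671 and 11995.

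The other thick filament and thin filament relatives of these 3 stayed low. Mybpc1 and Mybpc2 encode the slow and fast skeletal forms of myosin-binding protein C. Mybpc1 had its highest level on Day 4, at 28.2 ± 8.74 (SD, n = 3), and was at 7.24 ± 0.629 on Day -1. Mybpc2 was highest on Day 3, at 41.8 ± 9.59, and was at 2.42 ± 0.0306 on Day -1. Nebl, which encodes the shorter nebulin relative nebulette, had its highest level at 6 hours, at 18.5 ± 0.612. These 3 levels lie below the intensity of 100 required for a test.

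All 4 M-band genes rose, with a median log2 change between Day 5 and Day -1 of 6.08. Myomesins bridge neighbouring thick filaments and bind titin, and obscurin-like 1, the product of Obsl1, binds both. Myom1 was at 1125, 636 and 602 on Day 5, against 2.64, 2.33 and 1.64 on Day -1, a log2 change of 8.45 ± 0.381 (SE, adjusted p = 1.86e-13). It had increased on Day 0 over Day -1 by a log2 change of 3.52 ± 0.381 (SE, adjusted p = 5.12e-07), at 17.8 to 31.2 on Day 0, and with values below 50 raised to 50 it did not pass. In the interval from Day 1 to Day 2 it was at 766, 512 and 672 on Day 2, against 61.0, 82.9 and 125 on Day 1, a log2 change of 2.90 ± 0.381 (SE, adjusted p = 8.18e-06). The groups do not overlap in these comparisons. Myom1 was highest on Day 3, and 1 of the 3 Day 5 arrays lay well above the other two.

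Myom2 encodes the myomesin of fast adult fibres and was present before differentiation. Its intensities were 2122, 1816 and 1749 on Day 0, against 239, 339 and 253 on Day -1, a log2 change of 2.79 ± 0.234 (SE, adjusted p = 1.81e-08). From Day 2 on its means stayed between 7184 and 8589.7. Of its 4 probe sets 3 were tested and all 3 were higher on Day 5 than on Day -1. The one used is of a type that can also match other transcripts, as is that of Flnc.

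Myom3, the myomesin of intermediate fibres, was the last of the myomesins to reach 50% of its highest mean. It was at 173, 95.4 and 162 on Day 2, against 11.6, 10.1 and 22.5 on Day 1, a log2 change of 3.33 ± 0.380 (SE, adjusted p = 1.66e-06), with no overlap. On Day 5 it was at 457, 289 and 267, a log2 change over Day 2 of 1.24 ± 0.380 (SE, adjusted p = 0.0157). This call was lost without Day 2 replicate 2 (0.97) or without Day 5 replicate 1 (1.00). Obsl1 followed another course, with its highest level of 135 ± 39.9 (SD, n = 3) on Day 3 and 77.4 ± 32.7 on Day 5. Its log2 change from Day -1 to Day 5 was 3.92 ± 0.355 (SE, adjusted p = 5.77e-09), and with values below 50 raised to 50 it was 0.55 and did not pass.

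**Figure D3:**
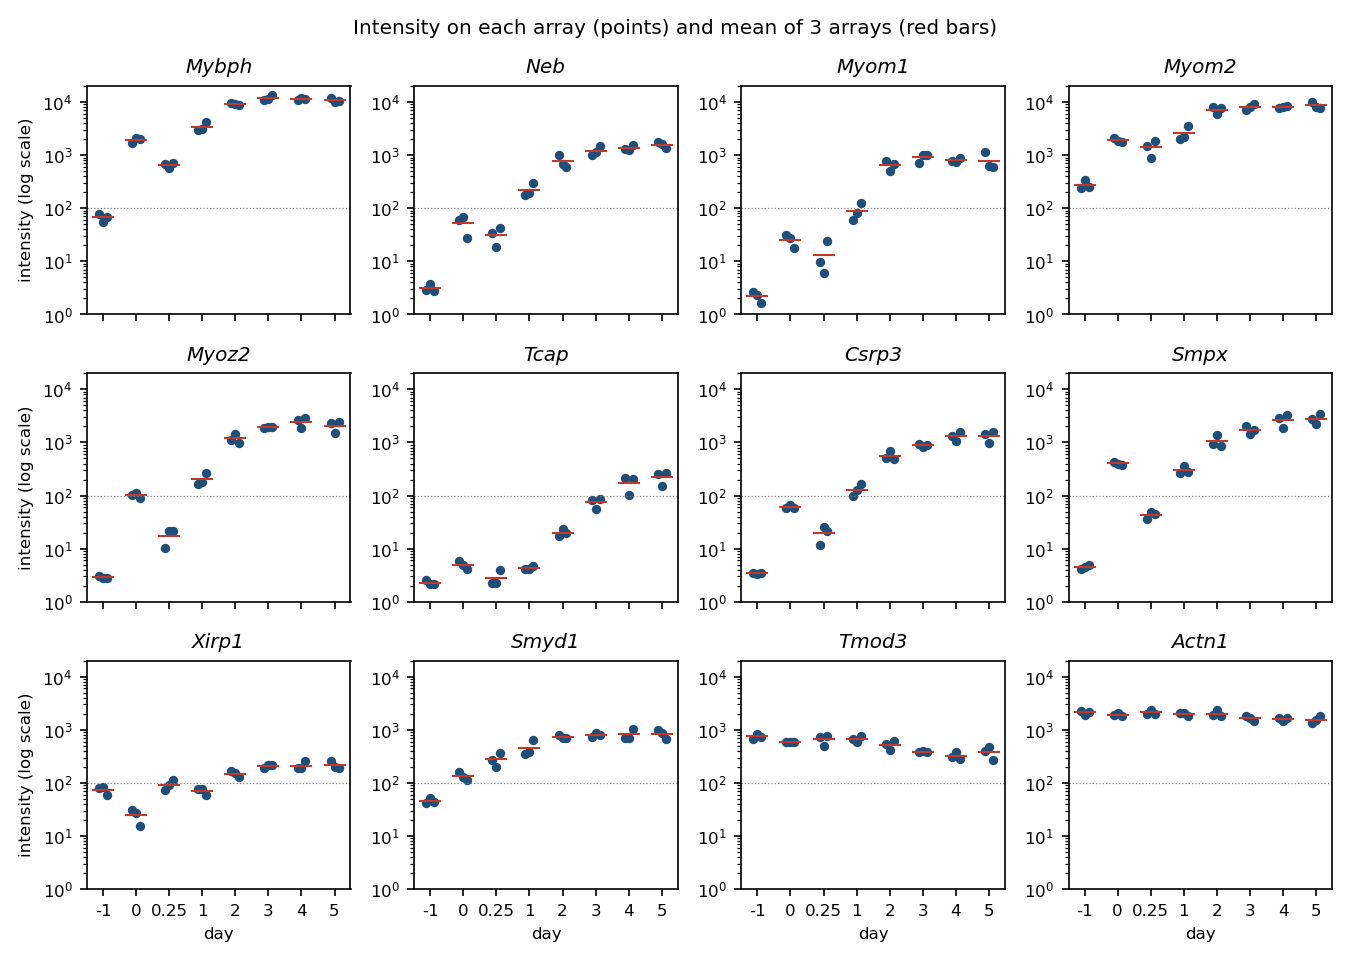
Intensity on each of 24 arrays (points, log scale) and mean of 3 arrays (red bars) over the time points in days for 12 genes, with a dotted line at the intensity of 100. Mybph, Myoz2, Csrp3 and Smpx are high on Day 0 relative to Day -1, low again at 6 hours and highest from Day 3, Tcap stays near the lower end until Day 1, and Tmod3 and Actn1 start high.

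All 7 Z-disc core genes tested were higher on Day 5 than on Day -1, on Day 0 than on Day -1 and on Day 2 than on Day 1. Actn2 and Actn3 encode the alpha-actinins of striated muscle. Actn2 was at 188, 133 and 181 on Day 2, against 16.6, 14.1 and 26.2 on Day 1, a log2 change of 3.18 ± 0.320 (SE, adjusted p = 3.85e-07). Before that it had stayed low, with no array above 26.2 up to Day 1. Actn3 was well above the filter from the start, at 5437, 4153 and 3945 on Day 5, against 843, 1066 and 844 on Day -1, a log2 change of 2.29 ± 0.146 (SE, adjusted p = 2.86e-11). Both genes had their highest mean on Day 3.

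Myoz2 encodes a calsarcin, which ties calcineurin to alpha-actinin. It had intensities of 101, 111 and 91.0 on Day 0, against 3.11, 2.76 and 2.78 on Day -1, a log2 change of 5.13 ± 0.247 (SE, adjusted p = 3.28e-12). At 6 hours it was down to 10.2, 21.1 and 21.3, a log2 change against Day 0 of -2.60 ± 0.247 (SE, adjusted p = 1.39e-07). The 3 groups do not overlap. On Day 1 it was at 167, 180.3 and 264, a log2 change over Day 0.25 of 3.58 ± 0.247 (SE, adjusted p = 3.85e-09), and its highest mean was 2443 ± 516 (SD, n = 3) on Day 4. The change from Day -1 to Day 5, 9.46 ± 0.247 (SE, adjusted p = 4.62e-17), was the largest log2 change of the 34 genes in that comparison. Its Day -1 values lay near the lowest of the arrays, so this size and rank are not precise.

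Tcap encodes telethonin, which caps a pair of titin ends at the Z-disc, and it was the last of the 34 genes to reach 50% of its highest mean. It was at 4.11, 4.10 and 4.67 on Day 1, close to the lowest values, and at 17.1, 23.2 and 19.7 on Day 2. On Day 3 it was at 82.3, 56.7 and 85.7, a log2 change over Day 2 of 1.89 ± 0.279 (SE, adjusted p = 6.21e-04). On Day 5 it was at 258, 152 and 265, a log2 change over Day 2 of 3.46 ± 0.279 (SE, adjusted p = 3.27e-08), the largest of the 34 genes between these days. On Day 4 it was at 216, 101 and 209, a log2 change over Day 3 of 1.17 ± 0.279 (SE, adjusted p = 0.0454). The arrays of Day 4 and Day 3 do not overlap, and the call lay next to the threshold. It was lost without any 1 of 17 of the 24 arrays, among them all 3 of Day 3 and Day 4 replicates 1 and 3, at log2 changes of 0.98 to 1.28 against 1.17 with all arrays. The interval from Day 2 to Day 3 kept its direction but not its call when values below 50 were raised to 50, at 0.56.

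Ldb3, which encodes the Z-disc protein ZASP, and Flnc, which encodes the muscle filamin, both rose between Day 1 and Day 2. Ldb3 was at 1495, 1204 and 1084 on Day 2, against 405, 448 and 615 on Day 1, a log2 change of 1.37 ± 0.144 (SE, adjusted p = 6.35e-07). Flnc was at 2009, 1253 and 1632 on Day 2, against 538, 494 and 851 on Day 1, a log2 change of 1.39 ± 0.210 (SE, adjusted p = 3.26e-05). Day 2 arrays lay above all Day 1 arrays for both. Synpo2l, whose product is an actin-associated Z-disc protein, was the Z-disc gene with the largest increase at 6 hours. Its intensities were 2431, 2050.3 and 2736 on Day 0.25, against 1204, 1041 and 949 on Day 0, a log2 change of 1.17 ± 0.150 (SE, adjusted p = 5.53e-06). It was at 2168, 2284 and 2884 on Day 1, which overlaps the 6 hour arrays, and at 5687, 4715 and 5112 on Day 2. Myot, Myoz1 and Myoz3, which encode myotilin and the other calsarcins, had means between 1.99 and 2.95 at all time points, close to the lowest values of the arrays.

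The broadly expressed alpha-actinins took another course. Actn1 and Actn4 encode the forms that cross-link actin at adhesions and in stress fibres. Actn1 was at 1333, 1553 and 1782 on Day 5, against 2266, 1922 and 2167 on Day -1, a log2 change of -0.45 ± 0.122 (SE, adjusted p = 0.00265). The groups do not overlap. Actn4 was at 1655, 1605 and 1328 on Day 5, against 1656, 1951 and 1730.5 on Day -1, a log2 change of -0.22 ± 0.123 (SE, adjusted p = 0.116). That change did not pass, although the highest Day 5 array lay just below the lowest Day -1 array. Neither gene passed between any neighbouring time points.

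Among the LIM domain proteins all 5 genes tested were higher on Day 0 than on Day -1, and their later courses differed. Csrp3 encodes muscle LIM protein. It had intensities of 57.1, 66.9 and 58.3 on Day 0, against 3.45, 3.40 and 3.41 on Day -1, a log2 change of 4.15 ± 0.235 (SE, adjusted p = 4.28e-11). At 6 hours it was at 11.9, 25.2 and 21.3, below all Day 0 arrays, a log2 change of -1.71 ± 0.235 (SE, adjusted p = 1.23e-05). Both changes lose their call when values below 50 are raised to 50, at 0.28 and -0.28. Csrp3 was at 1443, 991 and 1548 on Day 5, against 508, 702 and 489.5 on Day 2, a log2 change of 1.22 ± 0.235 (SE, adjusted p = 4.35e-04) with no overlap.

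Pdlim3, which encodes the actinin-associated LIM protein, reached its plateau before induction. It was at 2594, 2713 and 2534 on Day 0, against 987, 869 and 1017 on Day -1, a log2 change of 1.45 ± 0.106 (SE, adjusted p = 2.12e-09). It was the only one of the 34 genes that passed as lower on Day 2 than on Day 1, at 2062, 2197 and 2095 on Day 2, against 2588, 2642 and 2846 on Day 1. That log2 change was -0.35 ± 0.106 (SE, adjusted p = 0.0127), and after quantile normalization it was -0.25 and did not pass. Fhl1, which encodes a protein built of LIM domains, was bright throughout, at 4437, 3753 and 3939 on Day 5, against 3072, 3294 and 3319 on Day -1. Its log2 change was 0.32 ± 0.0863 (SE, adjusted p = 0.00257), the smallest of the 31 increases, and in a fit to these 6 arrays alone it did not pass. Fhl3 stayed near 2.13.

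Pdlim5 and Pdlim7, which encode the Z-disc adaptors ENH and enigma, gave different answers from different probe sets. Pdlim5 has 7 probe sets. The brightest one was at 1827, 1529 and 2013 on Day 5, against 233, 209 and 249.9 on Day -1, a log2 change of 2.95 ± 0.138 (SE, adjusted p = 2.92e-13). A further one was at 313 ± 35.1 on Day 5 and 221 ± 35.1 on Day -1, a log2 change of 0.51 ± 0.149 (SE, adjusted p = 0.00516). The other 5 were lower on Day 5, with log2 changes between -1.45 and -0.75. For Pdlim7 the brightest probe set was at 1332, 1119.7 and 1960.3 on Day 5, against 622, 406 and 606 on Day -1, a log2 change of 1.42 ± 0.208 (SE, adjusted p = 4.72e-06). Its second probe set was at 169.8 ± 28.4 on Day 5 and 868 ± 76.8 on Day -1 (SD, n = 3), a log2 change of -2.36 ± 0.188 (SE, adjusted p = 8.53e-10). Where on the transcripts these probe sets lie was not analysed here, so the direction of Pdlim7 and of Pdlim5 depends on the probe set.

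**Figure D4:**
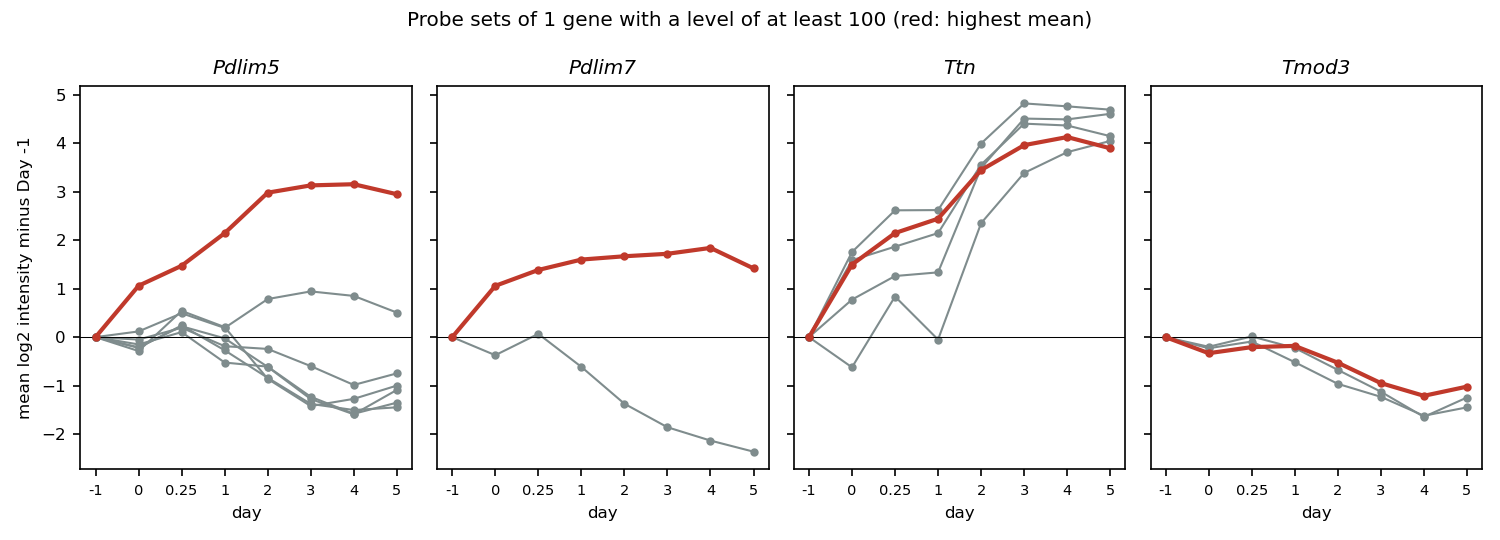
Mean log2 intensity of 3 arrays minus that of Day -1 over the time points in days, for each probe set with a level of at least 100 of Pdlim5, Pdlim7, Ttn and Tmod3, with the probe set of the highest mean in red. The probe sets of Pdlim5 and Pdlim7 part in direction, while the 5 of Ttn end higher and the 3 of Tmod3 end lower.

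At the pointed ends of the thin filaments, 3 genes rose and 1 fell between Day -1 and Day 5. Tropomodulins cap these ends and leiomodins extend them. Lmod2 was at 825, 631 and 824 on Day 3, against 424, 473 and 347 on Day 2, a log2 change of 0.87 ± 0.204 (SE, adjusted p = 0.016). The groups do not overlap, and the call was lost if Day 2 replicate 3 (0.75) or either of Day 3 replicates 1 and 3 (0.81 in both cases) was left out. Earlier, Lmod2 had been at 45.6, 46.5 and 26.4 on Day 0, against 3.58, 3.46 and 3.63 on Day -1, and at 6.98, 7.34 and 7.60 at 6 hours, all under an intensity of 50. Between Day 0.25 and Day 1 its log2 change was 3.51 ± 0.204 (SE, adjusted p = 3.88e-10).

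Lmod3, whose product is stabilised by that of Klhl40, was at 227, 264 and 237 on Day 0, against 12.5, 20.8 and 22.5 on Day -1, a log2 change of 3.75 ± 0.180 (SE, adjusted p = 3.19e-12). Its largest later step was to 1762, 1664 and 1489 on Day 2, against 380.1, 487 and 619 on Day 1, a log2 change of 1.75 ± 0.180 (SE, adjusted p = 4.89e-07). Tmod1, the tropomodulin of striated muscle, was at 936, 776 and 877 on Day 5, against 37.3, 12.9 and 38.6 on Day -1, a log2 change of 5.02 ± 0.275 (SE, adjusted p = 3.10e-12). For both genes the later arrays lay above all earlier ones. Tmod3, the broadly expressed tropomodulin, ran the other way, at 402, 473 and 264 on Day 5, against 678, 833 and 743 on Day -1, a log2 change of -1.02 ± 0.191 (SE, adjusted p = 8.77e-05). Its other tested probe sets were lower too, at -1.45 ± 0.231 (SE, adjusted p = 1.38e-05) and -1.25 ± 0.252 (SE, adjusted p = 1.98e-04). No interval between neighbouring time points gave a call for Tmod3.

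Among the Xin repeat, stretch and ankyrin repeat proteins, Smpx had the widest swings of the 34 genes before Day 1. Smpx encodes a small X-linked muscle protein. It had intensities of 429, 397 and 379.6 on Day 0, against 4.20, 4.60 and 5.01 on Day -1, a log2 change of 6.45 ± 0.212 (SE, adjusted p = 1.64e-14), the largest of the 34 genes in that comparison. The Day -1 values lay near the lower end of the scale, so this size and rank are not precise. At 6 hours it was at 36.7, 48.8 and 44.6, a log2 change against Day 0 of -3.22 ± 0.212 (SE, adjusted p = 8.76e-10), the largest decrease of the 34. The 3 time points do not overlap. On Day 1 it stood at 269.8, 359 and 276, still below the Day 0 arrays, with a log2 change over Day 0.25 of 2.80 ± 0.212 (SE, adjusted p = 1.42e-08). Smpx was at 2799, 2196 and 3429 on Day 5, against 929.6, 1383 and 842 on Day 2, a log2 change of 1.43 ± 0.212 (SE, adjusted p = 3.16e-05). Its step from Day 2 to Day 3, 0.73 ± 0.212 (SE, adjusted p = 0.0471), lay next to the threshold and was lost without any 1 of 17 of the 24 arrays, at 0.58 to 0.84 against 0.73 with all arrays.

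Xirp1 encodes Xin, an actin-binding repeat protein of cell junctions and Z-discs, and it ran against its group. On Day 0 it was at 30.9, 27.2 and 15.3, against 80.05, 84.0 and 58.9 on Day -1, a log2 change of -1.65 ± 0.220 (SE, adjusted p = 6.61e-06). At 6 hours it was at 73.3, 90.8 and 111, a log2 change over Day 0 of 1.95 ± 0.220 (SE, adjusted p = 1.19e-06), the largest increase of the 34 genes at this step. Day 0 arrays lay below all arrays of Day -1 and of Day 0.25. On Day 2 Xirp1 was at 167, 155 and 128, against 76.9, 75.05 and 58.9 on Day 1, a log2 change of 1.09 ± 0.220 (SE, adjusted p = 5.52e-04), again without overlap. With a level of 100 required on Day 0 or Day -1, Xirp1 was not tested there.

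Ankrd2 and Ankrd23 encode ankyrin repeat proteins that bind titin. Ankrd2 was at 72.8, 84.6 and 83.6 on Day 0, against 4.87, 6.38 and 6.56 on Day -1, a log2 change of 3.77 ± 0.224 (SE, adjusted p = 9.23e-11). At 6 hours it was at 31.3, 47.8 and 37.8, a log2 change against Day 0 of -1.06 ± 0.224 (SE, adjusted p = 9.48e-04), and the groups do not overlap. On Day 5 it was at 1680.3, 1148 and 1921, a log2 change over Day -1 of 8.04 ± 0.224 (SE, adjusted p = 1.31e-16). Ankrd23 was at 81.7, 79.5 and 51.5 on Day 2, against 14.7, 14.7 and 16.1 on Day 1, a log2 change of 2.19 ± 0.229 (SE, adjusted p = 5.92e-07). All Day 1 values lie under 50, and with values below 50 raised to 50 the change was 0.47 and did not pass.

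All 5 assembly and turnover genes tested were higher on each of Day 0, Day 1 and Day 2 than at the time point before, where for Day 1 this is Day 0.25. The Smyd1 calls on Day 1 and Day 2 were lost when single arrays were left out, as given above. Unc45b lay under an intensity of 50 on both Day -1 and Day 0. Unc45b encodes a myosin chaperone. It was at 108, 118 and 187 on Day 1, against 20.7, 15.5 and 47.5 on Day 0.25, a log2 change of 2.43 ± 0.379 (SE, adjusted p = 1.16e-04), and at 586, 449.9 and 602 on Day 2. Smyd1, a methyltransferase that acts in myofibril assembly, was the first of the 5 to reach 50% of its highest mean. It did so on Day 1, at 54.1%, where replicate 3 was the highest of the arrays. It was at 275, 201 and 367 on Day 0.25, against 163, 126 and 113 on Day 0, a log2 change of 1.04 ± 0.230 (SE, adjusted p = 0.00136), and it kept this call whichever array was left out. On Day 1 it was at 343, 379.6 and 628, a log2 change over Day 0 of 1.71 ± 0.230 (SE, adjusted p = 2.19e-05), with the Day 1 arrays above all Day 0 arrays.

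Klhl40 and Klhl41 encode Kelch proteins that stabilise thin filament proteins. Klhl41 was at 1084, 957 and 1050.2 on Day 0, against 81.6, 76.6 and 85.3 on Day -1, a log2 change of 3.67 ± 0.155 (SE, adjusted p = 4.42e-13). Its intensities on Day 1 were 2025, 2268 and 3029, a log2 change over Day 0.25 of 1.70 ± 0.155 (SE, adjusted p = 1.75e-07). Klhl40 was at 80.3, 77.6 and 75.1 on Day 0, against 12.2, 12.6 and 11.7 on Day -1, a log2 change of 2.67 ± 0.122 (SE, adjusted p = 1.55e-12). None of the arrays overlapped in these 3 comparisons. Klhl40 was highest on Day 3, at 524 ± 29.5 (SD, n = 3), and was at 355 ± 47.4 on Day 5, while Klhl41 was highest on Day 4, at 6329.7 ± 1104.

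Trim54 encodes a ubiquitin ligase of muscle that binds microtubules. It was at 74.6, 72.3 and 85.9 on Day 0.25, against 139.9, 146 and 129 on Day 0, a log2 change of -0.83 ± 0.136 (SE, adjusted p = 8.06e-05). All arrays at 6 hours lay below all Day 0 arrays and 2 of the 3 lay within the range of the Day -1 arrays, with the third above it. Trim54 was at 903, 838 and 885 on Day 3, against 519, 533 and 452 on Day 2, a log2 change of 0.81 ± 0.136 (SE, adjusted p = 0.00227). On Day 5 it was at 1366, 1047 and 1217, a log2 change over Day 2 of 1.27 ± 0.136 (SE, adjusted p = 9.42e-07). Of the 9 genes higher on Day 5 than on Day 2, Trim54, Tcap, Csrp3, Lmod2, Smpx and Ankrd2 kept the call whichever array was left out, and Neb, Myom3 and Myoz2 did not. For Myoz2 the log2 change where it was lost was 0.67 to 0.75 against 0.79 with all arrays (without Day 2 replicates 1 or 3 or Day 5 replicates 1 or 3).

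A list of 46 other genes of sarcomere structure, adhesion and assembly moved less uniformly. Of its 33 genes tested, 13 were higher and 4 lower on Day 0 than on Day -1, and 18 were higher and 14 lower on Day 5 than on Day -1, with a median log2 change of 0.32 in the longer span. Over all probe sets 31.9% were higher and 38.4% lower in the longer span, and 23.3% and 21.7% on Day 0. Cap2, whose product regulates actin, rose with a log2 change of 7.18 ± 0.161 (SE, adjusted p = 7.37e-18) from Day -1 to Day 5. Trim63, a ubiquitin ligase of the same family as Trim54, had 7.16 ± 0.257 (SE, adjusted p = 5.50e-15). Nrap, a LIM protein of early myofibril assembly, had 6.50 ± 0.280 (SE, adjusted p = 9.01e-14). The largest decreases, chosen after their values were seen, were those of the adhesion protein talin 2 (Tln2), at -2.35 ± 0.357 (SE, adjusted p = 7.83e-06), and of the LIM proteins Pdlim1, at -1.72 ± 0.120 (SE, adjusted p = 1.08e-10), and Csrp2, at -1.45 ± 0.278 (SE, adjusted p = 1.14e-04).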

How the data were processed

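Expression was read on 24 Affymetrix mouse arrays, 3 per time point. The authors derived the deposited intensity from GC-RMA values, which they exponentiated and brought to a common trimmed mean. The submitters' notes name GCRMA and MAS5 without versions. Time points came from the labels. Control probe sets were removed, leaving 45037. Gene names came from the platform annotation, and probe sets with 1 gene symbol were used. Log2 intensities of the 13735 probe sets that averaged 100 or more at some time point were fitted in limma 3.58.1 (R 4.3.3) with 8 groups, moderated by eBayes and adjusted over all of them by Benjamini-Hochberg. The fit was tested on simulated data. The genes and lists were chosen with earlier results of these data known. Values were given in full for up to 3 genes of a role group with the largest changes, and for genes that ran against their group or did not pass. Replicate numbers were checked for pairing. From Day 3 to Day 4 same-numbered arrays deviated together, with r between 0.210 and 0.350, and elsewhere at least 1 number was not above 0.1. Alternatives were the replicate block, other level filters, quantile normalization, a floor of 50, an intensity trend, other probe sets, a fit to 6 arrays and leaving out each array. Array number limits the precision.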

Additional observations from a re-analysis of the deposited data

How the results depend on the processing

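Of the counts of changed genes, that of Day 5 against Day -1 stayed at 33 without any 1 array, and those of the other comparisons ranged from 30 to 31 (Day 0 against Day -1), 13 to 20 (Day 0.25 against Day 0, with 13 without Day 0.25 replicate 1 and 20 with all arrays), 19 to 23 (Day 1 against Day 0.25), 27 to 29 (Day 2 against Day 1), 2 to 6 (Day 3 against Day 2), 0 to 3 (Day 4 against Day 3), 0 to 0 (Day 5 against Day 4), 18 to 20 (Day 1 against Day 0) and 8 to 12 (Day 5 against Day 2). The 2 came with any 1 of Day 2 replicate 3 and Day 3 replicates 1 and 3 left out, and the 3 without Day 4 replicate 2. Requiring a level of 100 in the comparison itself left 18 changed genes on Day 0 against Day -1, 12 on Day 0.25 against Day 0 and 2 on Day 3 against Day 2. At least 2-fold changes numbered 12 on Day 0.25 against Day 0 and 1 on Day 3 against Day 2. Without a level filter there were 2 on Day 3 against Day 2, 0 on Day 4 against Day 3 and 1 on Day 5 against Day 4. With values below 50 raised to 50 there were 10 on Day 3 against Day 2. The Tcap call of Day 4 against Day 3 was lost, leaving 0, in a fit to 6 arrays, after quantile normalization and under a prior with an intensity trend. The cause of these differences was not tested. With the replicate number as a block, 28 genes were higher on Day 2 than on Day 1 and 3 on Day 3 than on Day 2, against 27 and 4 without it. The block changed no other count. Same-numbered arrays deviated together for every number only between Day 3 and Day 4, and the labels do not say that the numbers pair arrays. The log2 change of Pdlim7 from Day -1 to Day 5 reversed to -2.36 with the probe set of the highest moderated t. Changes that begin near the lower end of the scale are not precise as folds, since signal there is close to background.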
